A study of Homo sapiens with 4 samples.

Results

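The genes described here are the apolipoproteins APOA1, APOA2, APOB, APOC1, APOC2, APOC3, APOE, APOH and APOM and the lipid transfer protein gene MTTP, a list of 10 symbols given by name. On the array 9 of them had a named probe set, 1 each, among 17687 named genes, and APOM was not analysed here. Li-7 and HEP-G2, both established lines from human liver tumours, were studied. In each line 1 sample was transfected by lipid reagent, 24 h after seeding, with 3 nM of a miR-4730 mimic, a synthetic copy of that microRNA, and 1 was given a commercial negative control, whose dose the labels do not state. This made 4 groups of 1 Affymetrix array. Li-7 was grown in RPMI-1640 and HEP-G2 in DMEM, each with serum, so line and medium cannot be told apart. The series asks what the mimic changes in these lines, and names HMGA1 as the gene under study. HMGA1 was lower with the mimic by -4.02 in Li-7 and -3.17 in HEP-G2 on the deposited log2-like scale, on which all values and differences below are given.

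Apolipoproteins are the protein coats of the particles that carry cholesterol and triglyceride in blood, and the liver is a main source of them. APOB is the large structural protein of very low density lipoprotein. MTTP, the microsomal triglyceride transfer protein, loads lipid onto it in the endoplasmic reticulum, and without that step the particle is not secreted. The smaller apolipoproteins can move between particles. APOA1 and APOA2 are the main proteins of high density lipoprotein, APOC2 activates lipoprotein lipase, APOC3 restrains it, APOC1 modulates enzymes and receptors of lipoprotein metabolism, and APOE is a ligand of the receptors that clear remnants. APOH, also called beta-2-glycoprotein I, binds anionic phospholipid and is made by hepatocytes.

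Mature miR-4730 is shown because it is the molecule that the mimic imitates. It has 23 bases in RefSeq's table (GRCh38.p14), and its seed, bases 2 to 8, is in capitals.
hsa-miR-4730: cUGGCGGAgcccauuccaugcca

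The 250 bases before an annotated start are shown for 3 of the genes, since all 9 measured genes differed between the lines in the same direction (below). RefSeq's promoter table (GRCh38.p14) matched 7 of the 10 symbols through 10 windows, and APOA1, APOB and APOC3 are named only. Capitals mark matches, on either strand, to the patterns listed after the sequences. The APOA2 window is chr1:161223629-161223878 on the minus strand. The MTTP window is the downstream of 2 annotated starts, chr4:99574574-99574823 on the plus strand. The APOE window is the first of 3 annotated starts, chr19:44905546-44905795 on the plus strand.
APOA2: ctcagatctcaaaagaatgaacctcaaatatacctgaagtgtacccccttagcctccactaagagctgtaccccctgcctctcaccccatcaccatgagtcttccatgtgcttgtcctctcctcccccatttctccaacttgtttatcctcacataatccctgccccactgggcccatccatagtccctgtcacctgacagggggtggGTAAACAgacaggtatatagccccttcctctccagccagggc
MTTP: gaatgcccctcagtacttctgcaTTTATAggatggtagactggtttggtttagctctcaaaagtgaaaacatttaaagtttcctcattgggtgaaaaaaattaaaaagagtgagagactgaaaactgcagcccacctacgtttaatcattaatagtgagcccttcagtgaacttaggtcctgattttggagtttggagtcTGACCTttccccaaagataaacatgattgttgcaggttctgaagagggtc
APOE: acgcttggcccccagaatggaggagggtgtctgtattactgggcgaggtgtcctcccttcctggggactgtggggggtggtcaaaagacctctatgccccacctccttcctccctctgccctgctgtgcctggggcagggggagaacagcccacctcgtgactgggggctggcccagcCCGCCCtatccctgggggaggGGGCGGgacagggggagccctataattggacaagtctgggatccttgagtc

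The patterns are sites of factors known to act on liver genes and common promoter elements, and the windows shown were picked for holding a match. The forkhead core TGTTTAC was matched in the APOA2 window, 42 bases before the start, and in 2.98% of all 35116 windows of this length. The nuclear receptor half-site AGGTCA was matched 50 bases before this MTTP start and 156 before the APOC2 start, and in 12.1% of all windows. The GC box CCGCCC was matched in the APOE window, at 72 and 51 bases before the start, in the window of the other MTTP start and in that of APOC1, and in 42.6% of all windows. TATAAA was matched 30 bases before the APOC2 start and 227 before this MTTP start, and in 10.7% of all windows. The HNF4 forms CAAAGTCCA, CAAAGGTCA and TGAACTTTG, and the C/EBP form TTGCNCAAT had no match in the 10 windows and were in 0.325%, 0.339%, 0.251% and 0.538% of all windows. CAAAGGTCA contains AGGTCA. A match describes letters only, and no binding was measured.

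All 9 measured genes were high in HEP-G2, while in Li-7 they lay near or among the negative control probe sets. The background limit of an array, as used here, is the value under which 95% of its 612 negative control probe sets lie. It was 8.72 for Li-7 control, 7.99 for Li-7 mimic, 8.35 for HEP-G2 control and 8.20 for HEP-G2 mimic. On both HEP-G2 arrays 9 of 9 genes lay above it, against 39.4% of all named genes on the control array and 40.0% on the mimic array. On the Li-7 control array 0 of 9 did, against 36.7% of named genes, and on the Li-7 mimic array 2 of 9, against 42.7%. With the limit at the 99th percentile the counts were 0 on both Li-7 arrays and 9 on both HEP-G2 arrays, and at the 90th percentile 4 (APOC1, APOE, APOH and MTTP) and 9.

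APOB read 4.23 (control) and 4.11 (mimic) on the Li-7 arrays, and 16.72 (control) and 17.14 (mimic) on those of HEP-G2. Both Li-7 values fell in the middle of the negative controls, with 52.5% and 49.8% of these below them, while no negative control reached APOB in HEP-G2. MTTP, which lipidates the APOB protein, stood at 7.90, 7.87, 13.09 and 13.21 in the same order of arrays. In Li-7 93.6% and 94.4% of the negative controls lay below MTTP, so both values were under the limit there.

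APOA1, the main protein of high density lipoprotein, read 6.43 and 6.20 in Li-7, control first, against 12.28 and 12.35 in HEP-G2. APOA2, its partner on that particle, read 2.76 and 3.13 in Li-7, against 17.35 and 17.78 in HEP-G2. The Li-7 values of APOA2 lay in the lower part of the negative controls, with 16.2% and 24.3% of them below. APOC1 read 7.77 and 7.24 in Li-7, against 13.30 and 13.71 in HEP-G2. A pseudogene copy, APOC1P1, lies beside APOC1, and the sources used here do not say whether the probes tell them apart. The lipase activator APOC2 read 6.22 and 6.10 in Li-7, against 14.50 and 14.76 in HEP-G2. APOC3, the lipase inhibitor, read 5.19 and 6.07 in Li-7, against 11.67 and 11.99 in HEP-G2, where 5 and 3 of the negative controls still reached it. For these 5 genes every Li-7 value lay under its array's limit.

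The exceptions in Li-7 were APOE and APOH, each above the limit on the mimic array alone. APOE, the remnant receptor ligand, read 7.32 (control) and 8.44 (mimic) in Li-7, against 15.87 and 16.24 in HEP-G2. APOH stood at 8.31 and 8.86 in Li-7, against 16.77 and 16.92 in HEP-G2. The limit itself was lower on the Li-7 mimic array by -0.73, and of the pair only APOH also passed the higher limit of the Li-7 control array.

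**Figure D1:**
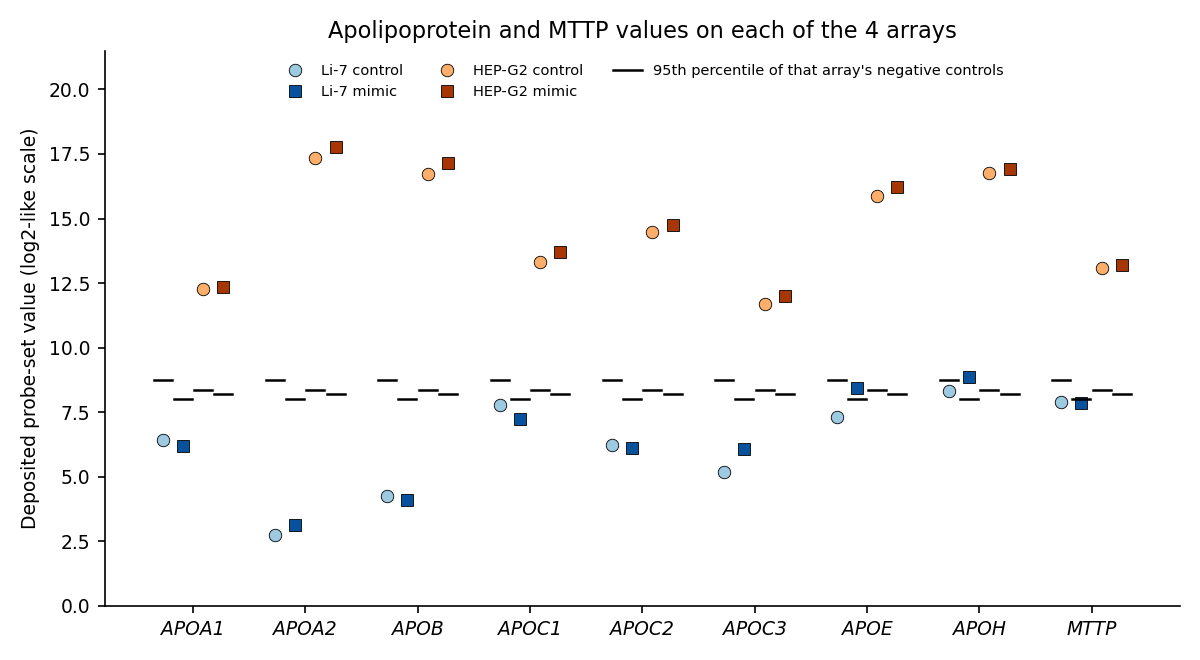
Deposited value (log2-like scale) of each of the 9 genes on the 4 arrays, 1 point per array, with the background limit of the same array as a black bar. HEP-G2 points lie above the bars for every gene, from 11.67 for APOC3 upward, and Li-7 points lie below them except APOE and APOH on the mimic array.

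The line difference, HEP-G2 minus Li-7, was fitted with limma over all 12381 genes that passed a filter on the mean of the arrays, with treatment in the model. All 9 genes were higher in HEP-G2 (Benjamini-Hochberg adjusted p between 1.31e-06 and 1.15e-05), where 44.9% of all genes tested were called, 20.7% as higher and 24.3% as lower. The median difference of the 9 was 8.18, against -0.03 over all genes tested. APOA2 had a fitted difference of 14.62 (SE 0.24) and APOB of 12.76 (SE 0.26). These 2 passed the filter only through HEP-G2, their Li-7 means lying under its floor of 4.90. Their calls and adjusted p (limma, 1.31e-06 for both) therefore add no support, and their fitted sizes are taken against background. The count of 9, the p range and the median of 8.18 include them. APOC2 differed by 8.47 (SE 0.25), APOH by 8.26 (SE 0.25), APOE by 8.18 (SE 0.28), APOC3 by 6.20 (SE 0.27), APOA1 by 6.00 (SE 0.25), APOC1 by 6.00 (SE 0.30) and MTTP by 5.27 (SE 0.25). With 1 array per group the error is the disagreement between the treatments' line differences (1 residual degree of freedom, moderated over genes), not a spread between cultures, which was not measured. In such bulk RNA, fewer cells that make a transcript and less of it per cell cannot be told apart.

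For the 7 genes under the limit on both Li-7 arrays the fitted size is no measure of the fold, and a lower bound was computed instead, from the HEP-G2 mean over the mean Li-7 limit. On the deposited scale, APOA2 was at least 589.8-fold higher in HEP-G2 than in Li-7, APOB at least 381-fold and APOC2 at least 77.2-fold. APOC1 was at least 35.4-fold higher, MTTP at least 27.7-fold, APOA1 at least 15.5-fold and APOC3 at least 11.1-fold. These bounds rest on the 95th percentile and would be smaller at the 99th. That was 10.74 for Li-7 control and 11.50 for Li-7 mimic. This pattern, above the limit on both HEP-G2 arrays and on neither Li-7 array, held for 7 of 9 of these genes and for 3.39% of all named genes. Between the control arrays the line difference was 5.54 for APOC1, 8.55 for APOE, 12.49 for APOB and 5.19 for MTTP, and between the mimic arrays 6.47, 7.80, 13.03 and 5.35. APOC1 had the widest gap between these of the 9 genes, 0.93, and whether the line differences with and without the mimic differ was not tested.

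Markers of hepatocytes moved with the same contrast. Of 12 hepatocyte markers, 12 lay above the limit on both HEP-G2 arrays. On the Li-7 control array 2 did, AMBP and RBP4, and on the Li-7 mimic array SERPINA1 as well. ALB, albumin, stood at 7.30 and 7.19 in Li-7 and 12.46 and 12.21 in HEP-G2, and AFP, alpha-fetoprotein, at 4.75 and 3.92 against 16.71 and 17.17. The summed value of the list ran from 70.9 to 75.2 in Li-7 and from 181.2 to 187.8 in HEP-G2. All 12 were called higher in HEP-G2 (limma, median difference 10.33), of which 6 passed the filter only through HEP-G2. Of 6 bile duct markers, which epithelial tumour cells can also carry, each Li-7 array had 6 above it and each HEP-G2 array 4. KRT19 stood at 14.84 and 14.61 in Li-7 against 9.07 and 11.66 in HEP-G2, and CFTR at 10.06 and 10.28 against 3.66 and 4.47. Of the bile duct markers 5 were called lower in HEP-G2. SOX9 went the other way, by 0.81, and was not called, with 9.59 and 10.47 in Li-7 against 11.41 and 10.27 in HEP-G2. The sums of the 6 bile duct markers ran from 71.0 to 71.6 in Li-7 and from 51.7 to 52.7 in HEP-G2. The part of these marker differences in the apolipoprotein result was not tested.

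Markers of enterocytes, blood cells, endothelium and stroma lay mostly under the limit. So did most named genes, of which 36.7% (Li-7 control) to 42.7% (Li-7 mimic) were above the limit. Enterocytes, which also secrete APOB, had 1 of 9 markers above it for Li-7 control, 2 for Li-7 mimic, 2 for HEP-G2 control and 3 for HEP-G2 mimic, with sums from 52.1 to 52.3 in Li-7 and 55.6 to 60.2 in HEP-G2. Those above it were the peptide transporter gene SLC15A1 in Li-7 (11.32 and 11.46), VIL1 in HEP-G2 (10.69 and 12.30), FABP2 on the HEP-G2 mimic array (9.32) and APOA4 on 3 arrays. SI, ALPI, LCT, CDX2 and RBP2 were under it on all arrays. Macrophages are a source of APOE. Of 10 macrophage and other blood cell markers, CD68 and LYZ alone were above the limit, on all 4 arrays, and PTPRC, CD14 and CSF1R on none. Their sums ran from 64.2 to 67.5 in Li-7 and from 71.5 to 72.2 in HEP-G2. LYVE1, in HEP-G2 only, was the 1 of 8 endothelial markers above the limit, with sums from 34.4 to 34.5 in Li-7 and 40.8 to 42.3 in HEP-G2. Of 6 stromal markers 2 were above it on each array, COL1A2 and LUM in Li-7 and COL1A2 and ACTA2 in HEP-G2, with sums from 37.9 to 40.6 in Li-7 and 38.0 to 39.2 in HEP-G2.

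Most of the measured genes lie in gene clusters, and not all neighbours within these shared the line difference. On chromosome 11 RefSeq's order is APOA5, APOA4, APOC3 and APOA1. APOC3 and APOA1 differed by 6.20 and 6.00, while APOA4 differed by 0.40 (SE 0.28, limma adjusted p = 0.293) and APOA5 by 0.53 (SE 0.25, limma adjusted p = 0.126). APOA4, which the intestine makes, stood at 7.77 and 9.19 in Li-7 and 8.55 and 9.21 in HEP-G2, above the limit on all but the Li-7 control array. APOA5 was under it on all arrays. On chromosome 19 the order is APOE, APOC1, APOC4 and APOC2. APOC4 stood at 8.75 and 8.87 in Li-7 and 9.02 and 9.18 in HEP-G2, a difference of 0.29 (SE 0.24, limma adjusted p = 0.368), between neighbours that differed by 6.00 and 8.47. It lay above the limit on all 4 arrays, but barely for Li-7 control, where the limit was 8.72. Both APOA4 and APOC4 stayed under the 99th percentile of the negative controls on every array. Of the flanking genes, TOMM40 and NECTIN2 before APOE differed by -0.19 and -0.46 and were not called. After APOC2, CLPTM1 differed by -1.18 and RELB by -1.85, both called lower in HEP-G2 (limma adjusted p = 0.00814 and 0.00108), RELB with values under the limit on all arrays. APOC2 shares sequence with the readthrough transcript APOC4-APOC2, and APOA1 overlaps the antisense RNA APOA1-AS, and the sources used here do not say how the probes treat them. The contrast between a member and its neighbour was not tested as such.

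**Figure D2:**
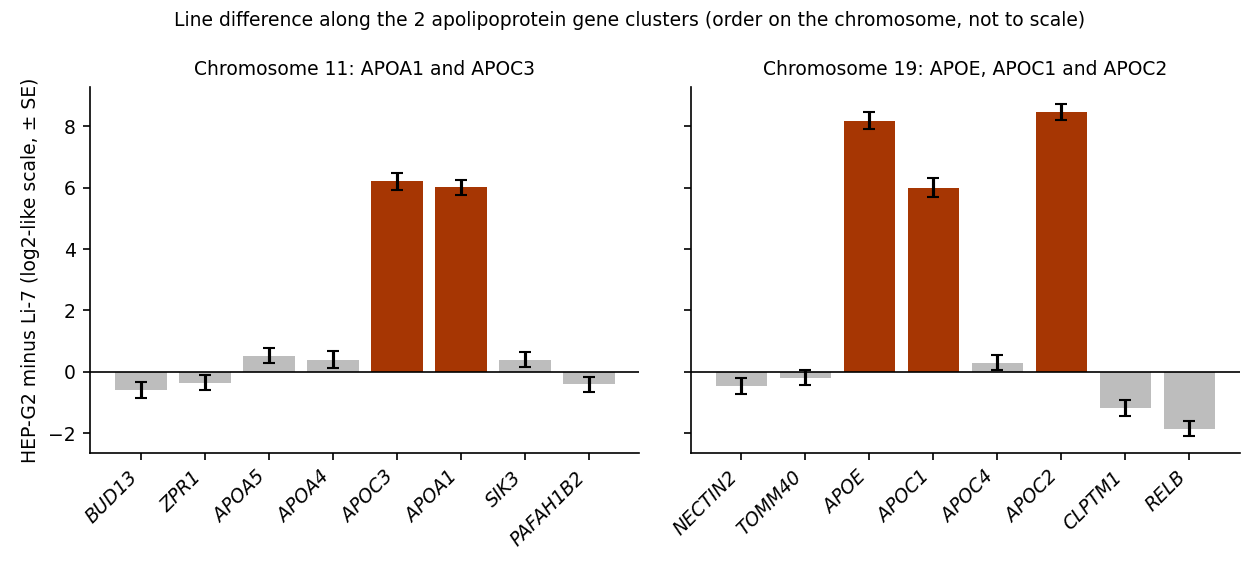
HEP-G2 minus Li-7 difference (log2-like scale, bars with SE from limma) of the protein-coding genes along both clusters, in chromosome order and without a distance scale. Coloured bars are the listed apolipoproteins, at 6.00 to 8.47, and grey bars their neighbours, at -1.85 to 0.53.

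With the mimic, none of the 9 genes passed the test of a response common to both lines (limma, adjusted p between 0.221 and 0.954), in which 0.42% of all genes were called, 0.0808% as higher and 0.339% as lower. Those are 10 and 42 genes, and after quantile normalization 192 and 273. Without adjustment 1 of 9 had a p under 0.05, against 2409 of 12381 genes. The median common change was 0.15, against 0.03 over all genes tested. APOE had the largest, 0.75 (95% interval 0.08 to 1.41, adjusted p = 0.221). It was followed by APOC3 with 0.60 (interval -0.03 to 1.23, adjusted p = 0.277), APOA2 with 0.40 (interval -0.18 to 0.98) and APOH with 0.35 (interval -0.26 to 0.95). APOB had a change of 0.15 (interval -0.48 to 0.78) and MTTP of 0.04 (interval -0.54 to 0.62). APOC2 was at 0.07, APOC1 at -0.06 and APOA1 at -0.08. In 7 of the 9, all but APOE and APOH, the Li-7 part of the mean comes from values under the limit on both arrays. For APOE and APOH the Li-7 control value lay under the limit. So none of these intervals bounds a response in Li-7.

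In HEP-G2 alone, 9 of 9 genes were slightly higher on the mimic array, by 0.08 (APOA1) to 0.43 (APOB and APOA2), with a median of 0.32. Over all genes tested 51.2% were higher there, with a median of 0.02. None of the 9 reached 2-fold, against 5.77% of genes higher and 6.28% lower by that much. Among the 2260 genes at least as bright as the dimmest of the 9 on the HEP-G2 control array, 48.8% were higher and the median was -0.02. Of the hepatocyte markers, all but ALB (-0.25) and HP (-0.29) were also higher on the mimic array, by 0.42 (RBP4) to 1.21 (TTR). APOC1 was higher by 0.40, APOE by 0.37, APOC3 by 0.32, APOC2 by 0.27, APOH by 0.15 and MTTP by 0.12. These are differences between 1 array and 1 array and have no test.

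In Li-7 alone, 4 of 9 were higher and 5 lower, with a median of -0.04 against 0.02 over all genes tested, of which 51.8% were higher. APOE, higher by 1.12, was the 1 gene past 2-fold, against 3.72% of genes higher and 4.12% lower, and its control value lay under the limit. APOC3 was higher by 0.88 and APOA2 by 0.37, both with values under the limit on both arrays, and APOH by 0.55. APOC1 was at -0.53, APOA1 at -0.23, APOB and APOC2 at -0.12 and MTTP at -0.04, all under the limit. Since most Li-7 values lie among the negative controls, the sizes of these changes are uncertain.

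**Figure D3:**
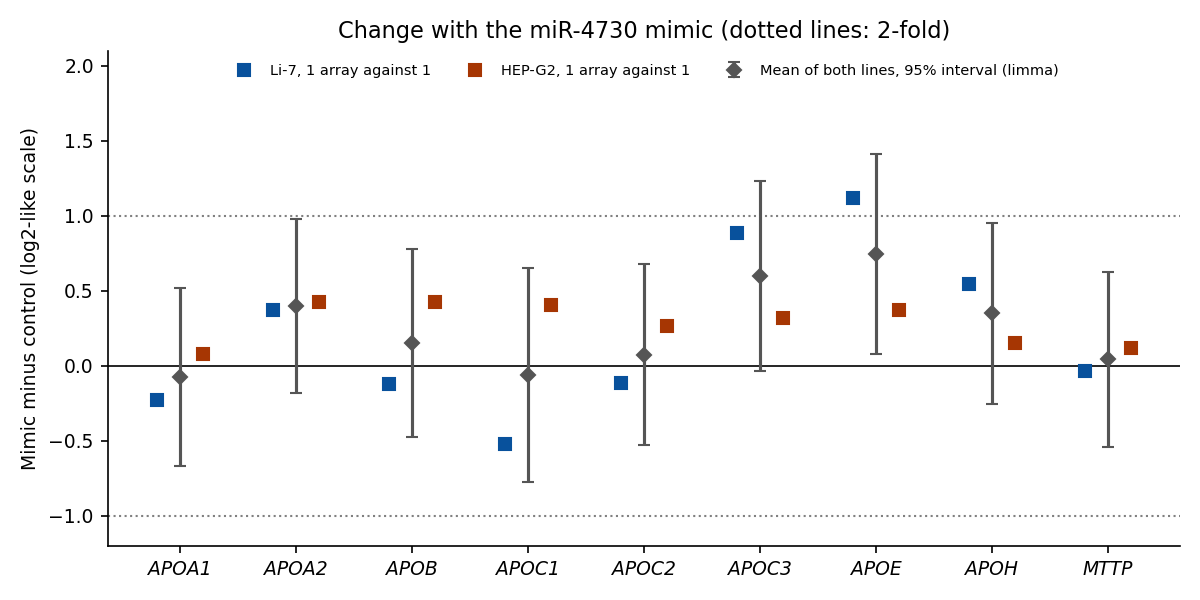
Mimic minus control (log2-like scale) for each gene in Li-7 and HEP-G2 (squares, 1 array against 1) and the mean of both lines with its 95% interval from limma (diamonds). HEP-G2 squares lie between 0.08 and 0.43, Li-7 squares between -0.53 and 1.12, and APOE in Li-7 is the single point past the 2-fold line.

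Around these genes, 6 lists of lipoprotein genes held 116 symbols, of which 95 had a probe set and 79 were tested. None of the 79 passed the common mimic test (limma, smallest adjusted p = 0.0627), and 41 were called higher and 9 lower in HEP-G2, against 20.7% and 24.3% of all genes. Where a gene lay under the limit on both arrays of 1 line and above it on both of the other, the fold is given as a lower bound against that limit. For such a gene, the mimic change in the line under the limit is of uncertain size. The other apolipoproteins (9 tested of 14 measured) had 1 called higher in HEP-G2, APOL2 (at least 2.21-fold), and 1 lower, APOL6 (at least 1.93-fold), 2 cytosolic members of the APOL family. Their median difference was 0.29. APOL1, the secreted member of that family, differed by 0.53 with its Li-7 control value under the limit, and APOO, a mitochondrial protein, by 0.04. Neither was called. Their changes with the mimic were -0.46 for APOL1, -0.32 for APOO and 0.26 for APOL3, which lay under the limit on all arrays. APOA4 had mimic differences of 1.41 (Li-7, from a control value under the limit) and 0.67 (HEP-G2), which did not pass (common change 1.04, SE 0.28, adjusted p = 0.132).

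Genes of particle assembly and export had 14 of 21 called higher in HEP-G2 and 2 lower, against 20.7% and 24.3% of all genes tested. Their median difference was 1.25. CIDEB, a lipid droplet protein that takes part in very low density lipoprotein lipidation, stood at 6.59 and 5.58 in Li-7 and 14.64 and 15.59 in HEP-G2, at least 108.2-fold higher there. SOAT2, which makes cholesteryl ester for these particles, was at least 2.57-fold higher in HEP-G2, and PRAP1 at least 1.80-fold, both having passed the filter only through HEP-G2. SEC24D, a cargo adaptor of the vesicles that leave the endoplasmic reticulum, differed by 4.24 (SE 0.29). ABCA1, which loads APOA1 with cholesterol, differed by 4.36 and had the largest common change of the list, 1.37 (SE 0.28, adjusted p = 0.0876), from 0.99 in Li-7, where its control value was under the limit, and 1.74 in HEP-G2. SOAT2 was at 0.22 and 1.49 with the mimic, PRAP1 at 0.67 and 0.94, SEC24D at -1.07 and -0.27, and CIDEB at -1.01 and 0.96. Thus the median common change of the list was 0.16 and 0 of 21 passed.

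Of 8 genes of APOB messenger editing and APOB protein decay, 2 were called higher in HEP-G2 and 3 lower, with a median of -0.13. Over all genes tested 20.7% were called higher and 24.3% lower. The editing enzyme APOBEC1 was measured but fell under the filter. Its cofactors differed in opposite directions. A1CF stood at 7.36 and 8.49 in Li-7 and 13.24 and 13.89 in HEP-G2, a difference of 5.64 (SE 0.26) with the Li-7 control value under the limit. RBM47 stood at 12.24 and 11.47 in Li-7 and 4.41 and 5.43 in HEP-G2, at least 11.9-fold lower there. SYNCRIP differed by -1.10 and SYVN1, a ubiquitin ligase of the endoplasmic reticulum, by 1.35. With the mimic A1CF was at 1.12 (Li-7) and 0.65 (HEP-G2), HNRNPAB at -0.50 and -0.96, and SYNCRIP at -0.09 and -0.57. CELF2, under the limit on all arrays, was at 0.07 and -0.96. None of these passed the common test.

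Lipases, transfer proteins and their inhibitors had 5 of 6 called higher in HEP-G2, against 20.7% of all genes tested, with a median of 2.91. The 5 include ANGPTL8, an inhibitor of lipoprotein lipase with values under the limit on all arrays. ANGPTL8 passed the filter only through HEP-G2. PLTP, the phospholipid transfer protein, was at least 4.74-fold higher, LCAT, which esterifies cholesterol on high density lipoprotein, at least 2.20-fold, and FURIN, a protease, at least 2.56-fold. LIPA, the lysosomal acid lipase, differed by 3.36 (SE 0.24). With the mimic LIPA was at 0.73 and 0.88, LCAT at 0.36 and 1.09, FURIN at 0.55 and 0.88, and ANGPTL8 at 0.51 and 0.91, in Li-7 and HEP-G2. The list's median common change was 0.72 with 0 of 6 passing.

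Among 13 lipoprotein receptor genes, 6 were called higher in HEP-G2 and 2 lower, against 20.7% and 24.3% of all genes tested. Their median difference was 0.50. CUBN, cubilin, a receptor that binds APOA1, stood at 3.23 and 3.20 in Li-7 and 9.57 and 10.90 in HEP-G2, at least 3.67-fold higher there, and passed the filter only through HEP-G2. LRP1, a remnant receptor that binds APOE, was at least 28.5-fold higher. LRP2, megalin, was called higher too, but it also passed the filter only through HEP-G2 and lay under the limit on all arrays. SORL1 had the largest common change with the mimic, 1.05 in Li-7 and 0.97 in HEP-G2 (mean 1.01, SE 0.24, adjusted p = 0.109). LRP1 was at 0.18 and 1.07, CUBN at -0.03 and 1.34 and VLDLR, with its Li-7 control value under the limit, at 0.28 and 0.59.

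Of 22 transcription factors and coregulators known to act on apolipoprotein genes, 13 were called higher in HEP-G2 and 1 lower, with a median of 0.94. Over all genes tested 20.7% were called higher and 24.3% lower. HNF4A, a main activator of these genes in hepatocytes, was not analysed here. PPARGC1A, a coactivator of fasting metabolism, stood at 5.93 and 5.65 in Li-7 and 12.21 and 12.23 in HEP-G2, at least 14.6-fold higher there. NR0B2, a repressive nuclear receptor, differed by 4.44 (SE 0.27), its Li-7 control value lying just under the limit. MLXIPL, the carbohydrate response factor, was at least 2.09-fold higher in HEP-G2. CREB3L3, a liver and intestinal factor known to act on APOC2 and APOA4, had the largest common change with the mimic of the 79 genes. It stood at 7.06 and 8.63 in Li-7 and 8.57 and 9.97 in HEP-G2, a mean change of 1.48 (SE 0.25, adjusted p = 0.0627), from a Li-7 control value under the limit. NR0B2 was at 0.62 and 1.26, NR5A2 at 0.57 and 0.84 and FOXA1 at -0.58 and -0.82 with the mimic, and none passed.

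**Figure D4:**
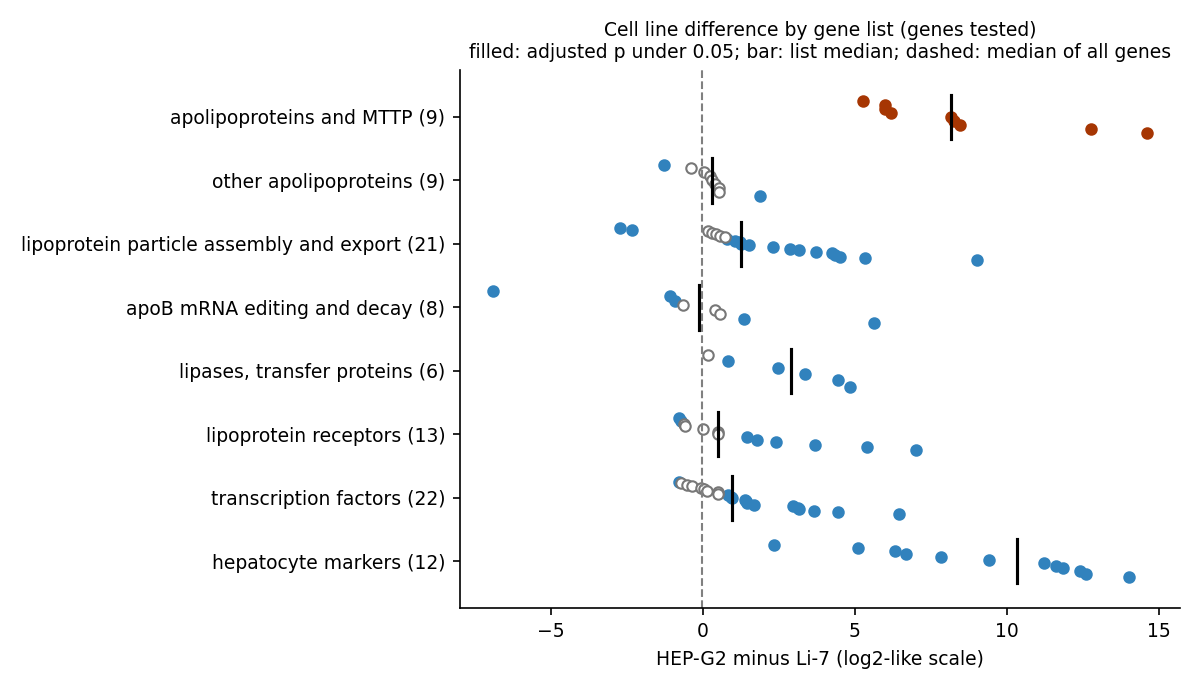
HEP-G2 minus Li-7 difference (log2-like scale) of each gene tested, by list with the number tested in brackets, filled where the limma adjusted p was under 0.05. Black bars are list medians, 8.18 for the apolipoproteins and MTTP, 0.29 for other apolipoproteins and 10.33 for hepatocyte markers, with Li-7 values under the limit included, and the dashed line is the median of all genes tested, -0.03.

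Genes most like APOB, APOA1 and APOE were taken as the 5 with the smallest Euclidean distance over the 4 arrays, each gene centred on its own mean. For APOB these were GPC3 (distance 0.413), AFP (0.529), FGG (0.701), FGA (1.12) and TF (1.21), which include secreted liver proteins. For APOA1 they were GASK1B (0.130), SLC17A2 (0.177), MYO1D (0.242), SERPINA10 (0.246) and APOC1 (0.311). For APOE they were IGSF1 (0.438), APOH (0.441), IGDCC3 (0.442), ITIH2 (0.514) and CYP27A1 (0.523). With 4 arrays in 2 lines the distance mostly reflects the size of the line difference, and the Li-7 values of APOB and APOA1 lay under the limit.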

How the data were processed

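Biotin-labelled RNA of both lines was measured on 4 Affymetrix arrays, grouped by their sample titles. The deposited file holds 1 value per probe set and array, taken as log2 from its range and like quartiles. Software listed in the submitters' processing notes was Transcriptome Analysis Console and Expression Console, both of Affymetrix. The sources used here do not give background correction, normalization, log base or build, so every fold assumes base 2. Probe sets were named through the platform annotation and RefSeq (all 17709 identifiers matched, GRCh38.p14), and the brightest stood for a gene. The dimmest 30% of genes by mean value were not tested, which left 12381.

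R 4.3.3 with limma 3.58.1 fitted line and treatment (lmFit, eBayes, 5.85 prior degrees of freedom), with Benjamini-Hochberg adjustment over all genes tested at 0.05. Single-line differences were counted at 2-fold without a test. On simulated data the share of false calls in both fits was above the nominal level of the threshold. The genes described and the lists were chosen with earlier results of these data known. Named genes were all listed members, HMGA1, and per list up to 4 with the largest mimic change and 3 with the largest line difference, besides markers, cluster neighbours and nearest genes. The number of arrays limits the precision.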

Additional observations from a re-analysis of the deposited data

How the results depend on the processing

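The line difference of the 9 genes kept its direction under all 11 alternatives and its call under 10 (adjusted p up to 2.89e-05, and up to 0.000214 with treatment left out of the model). An ordinary t statistic, with 1 degree of freedom, called 0 of the 9 (adjusted p 0.206 to 0.249) and 1 of all genes, against 5563. Centring on medians moved the all-gene line median by 0.18. No gene of the 9 passed the common mimic test under any of the 11 alternatives (lowest adjusted p 0.13), and APOC1 alone changed sign, to 0.015 after cyclic loess. The 52 calls over all genes became 465 after quantile normalization, 28 with median centring, 23 after cyclic loess, 366 with the filter at the median gene, 200 with a filter on the negative controls, 411 with an intensity trend, 1 by the ordinary t statistic and 0 in a model lacking the line term, where 182 had an unadjusted p under 0.05. The cause was not tested. The share of lower calls, 80.8%, became 58.7% after quantile normalization and 85.7% with median centring. The 9 of 9 higher in HEP-G2 with the mimic held after quantile normalization, median centring and cyclic loess, with medians of 0.38, 0.33 and 0.41. At 1.5-fold, 2 of the 9 passed in Li-7 with 3112 of all genes, against 1 and 971 at 2-fold, and 0 and 211 at 3-fold. In HEP-G2 all-gene counts were 4032 and 399 at 1.5-fold and 3-fold, against 1491. Above the 90th percentile of the negative controls lay 4 of the 9 on each Li-7 array, and above the 99th 0 on the Li-7 mimic array, against 2. There was 1 array per line and treatment, and the fit with a line term already compares mimic and control within each line.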
